A study of Mus musculus with 12 samples.

Results

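The genes described here belong to bone morphogenetic protein (BMP) signalling and to the Id family. They are Id1, Id2, Id3, Id4, Bmp4, Bmp7, Bmpr1a, Bambi, Smad6 and Grem1, chosen by gene symbol, and make up 10 of the 20325 genes in the expression tables. All 10 were among the 13400 genes tested, for which 3 or more libraries had to reach 10 counts. Grem1 reached 10 counts only in DMSO and AA libraries, so it passed through the groups where it was high. The 12 RNA-seq libraries came from a line of mouse pre-iPSCs, cells stalled between fibroblasts and induced pluripotent stem cells. The line is clonal and was derived from fibroblasts carrying a Nanog-GFP reporter that were transduced with pMX retroviruses for Oct4, Sox2, c-Myc and Klf4, and every group shares this origin. Cells in ESC medium with serum and LIF, off their feeder layer, received for 48 h the vehicle DMSO, ascorbic acid (AA, 50 µg/ml), 2i (a MEK inhibitor at 1 µM and a GSK inhibitor at 3 µM) or both (AA+2i). Each condition has 3 replicates, A, B and C, and a single clone limits how far the values speak for other pre-iPSCs.

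BMP ligands bind receptor pairs at the cell surface, which phosphorylate SMAD1, SMAD5 and SMAD9, and these enter the nucleus with SMAD4 and switch on target genes. The Id genes are among the best known of these targets. They encode helix-loop-helix proteins without a DNA-binding region, which capture E proteins and so hold back differentiation factors. In serum-grown mouse ESCs, BMP acts with LIF to maintain self-renewal, in large part through the Id genes. Extracellular antagonists such as Grem1, the membrane pseudoreceptor Bambi and the inhibitory SMAD Smad6 restrain the pathway, and both Bambi and Smad6 are themselves induced by it.

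Library totals lay between 16173322 and 54392719 expected counts, with a median of 21854761. Expression levels are given as TPM, a scale corrected for transcript length and library size. Fold changes are log2 values with standard errors (SE) from edgeR's quasi-likelihood test on expected counts, and a gene is said to have risen or fallen when the p adjusted over all tested genes was under 0.05. This test had no block for the replicate letter, and fits with the letter as a block are named as such. Of 8 fibroblast and feeder markers, 7 were detected in each condition and Lum was at 0. Their summed level was 3.48 to 11.2 TPM in DMSO, 8.05 to 18.9 TPM in AA, 4.24 to 4.72 TPM in 2i and 6.83 to 9.35 TPM in AA+2i. Without Thy1 no library exceeded 5.61 TPM. Mean Thy1 was 5.13 TPM in DMSO, 12.6 in AA, 1.15 in 2i and 3.80 in AA+2i. Mean Col1a1, Col1a2 and Col3a1 were highest in AA+2i, at 1.64, 2.02 and 0.560 TPM, against 0.733, 1.27 and 0.133 TPM in DMSO. Postn, Pdgfrb and Dcn had means of at most 0.217 TPM. The summed level of Nanog, Esrrb and Zfp42, naive genes that are low in pre-iPSCs, was 4.87 to 10.5 TPM in DMSO, 31.9 to 38.7 TPM in AA, 6.63 to 7.80 TPM in 2i and 41.5 to 50.8 TPM in AA+2i. That of Cdh1, Epcam and Fut4, epithelial and late reprogramming genes, was 98.0 to 149 TPM in DMSO, 218 to 328 TPM in AA, 110 to 127 TPM in 2i and 253 to 305 TPM in AA+2i. Fut4 reached at most 0.12 TPM, so this sum is that of Cdh1 and Epcam. Within the naive sum, mean Zfp42 was 2.37 TPM in DMSO, 15.8 in AA, 1.08 in 2i and 6.71 in AA+2i, lower with 2i than without. Mean Nanog went the other way, at 4.41, 17.8, 6.08 and 36.6 TPM in the same order. The part of these shifts in the results was not tested. Libraries DMSO A and AA+2i C stood at opposite ends of a dependence of counts on GC content, treated after the single genes.

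The promoters of Id4 and Grem1, the genes that fell, and of Id3 and Smad6, the genes that differed most between replicates, are shown with SMAD motifs in capitals. Each is a window of 300 bases around a start given by RefSeq, with letters from RefSeq, and was located by exact match in NCBIM37 (mm9), at chr13:48356235-48356534 on the plus strand for Id4, chr2:113598756-113599055 on the minus strand for Grem1, chr4:135699487-135699786 on the plus strand for Id3 and chr9:63869817-63870116 on the minus strand for Smad6. The annotated gene starts inside the Grem1 and Smad6 windows, but 262 bases past the end of the Id4 window and 75 bases before the Id3 window, which lies within the annotated gene. The motifs searched on both strands were the SMAD palindrome GTCTAGAC, which itself contains no other motif searched, the GC-rich SMAD element GGCGCC and the SMAD box CAGAC.
Id4 promoter: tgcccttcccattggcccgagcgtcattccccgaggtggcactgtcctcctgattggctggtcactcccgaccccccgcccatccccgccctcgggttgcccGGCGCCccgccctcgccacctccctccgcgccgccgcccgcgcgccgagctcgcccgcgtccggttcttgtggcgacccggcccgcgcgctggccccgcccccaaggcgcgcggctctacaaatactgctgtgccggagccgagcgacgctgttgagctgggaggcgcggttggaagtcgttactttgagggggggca
Grem1 promoter: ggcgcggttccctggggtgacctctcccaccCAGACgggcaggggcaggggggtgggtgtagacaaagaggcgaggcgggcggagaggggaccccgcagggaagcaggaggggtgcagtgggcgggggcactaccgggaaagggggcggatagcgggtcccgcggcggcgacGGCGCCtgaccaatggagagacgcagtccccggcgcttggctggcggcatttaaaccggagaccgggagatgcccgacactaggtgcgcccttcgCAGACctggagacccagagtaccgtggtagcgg
Id3 promoter: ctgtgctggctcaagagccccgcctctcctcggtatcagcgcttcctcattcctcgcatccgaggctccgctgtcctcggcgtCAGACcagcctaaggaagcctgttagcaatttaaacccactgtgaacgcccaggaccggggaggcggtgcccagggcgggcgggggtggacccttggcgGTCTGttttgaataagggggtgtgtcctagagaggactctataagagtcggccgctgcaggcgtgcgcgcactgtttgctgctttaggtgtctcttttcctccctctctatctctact
Smad6 promoter: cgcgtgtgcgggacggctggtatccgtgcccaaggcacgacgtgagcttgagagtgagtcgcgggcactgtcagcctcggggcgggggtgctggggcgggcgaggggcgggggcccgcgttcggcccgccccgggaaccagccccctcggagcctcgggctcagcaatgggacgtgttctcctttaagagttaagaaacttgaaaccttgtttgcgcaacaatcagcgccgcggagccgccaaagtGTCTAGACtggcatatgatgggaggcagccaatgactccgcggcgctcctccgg
The Smad6 window held 1 GTCTAGAC, which occurred in 70 of 32851 promoters of the same length (0.213%). Id4 and Grem1 each held 1 GGCGCC, present in 11.9% of promoters, and Grem1 and Id3 each held 2 copies of CAGAC, present in 49.6%. Of the other members in the table, Id2 and Bmpr1a held 1 GGCGCC each and Bmp4 held none of these letters. Id1, Bmp7 and Bambi were not among the 7 members matched.

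In DMSO, Id1 was the highest member with 249 ± 100.3 TPM (SD, n = 3), followed by Id3 with 110.0 ± 89.0, Bmpr1a with 96.4 ± 41.9 and Id2 with 91.4 ± 13.04 TPM. The ranges of neighbours among these 4 genes overlapped, so their order is not fixed. All 4 lay above Id4 (7.07 ± 1.05 TPM) in every DMSO library, and Id4 lay above Bambi (4.49 ± 1.26 TPM). Bmp4 (2.03 ± 0.900 TPM), Smad6 (1.54 ± 0.510 TPM) and Grem1 (1.14 ± 0.418 TPM) overlapped in turn, and Bmp7 was lowest with 0.383 ± 0.285 TPM. In AA+2i, Bambi with 11.2 ± 2.23 TPM stood above Id4 with 2.29 ± 0.176 TPM, the reverse of their order in DMSO, and the ranges of these genes did not overlap in either condition.

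**Figure D1:**
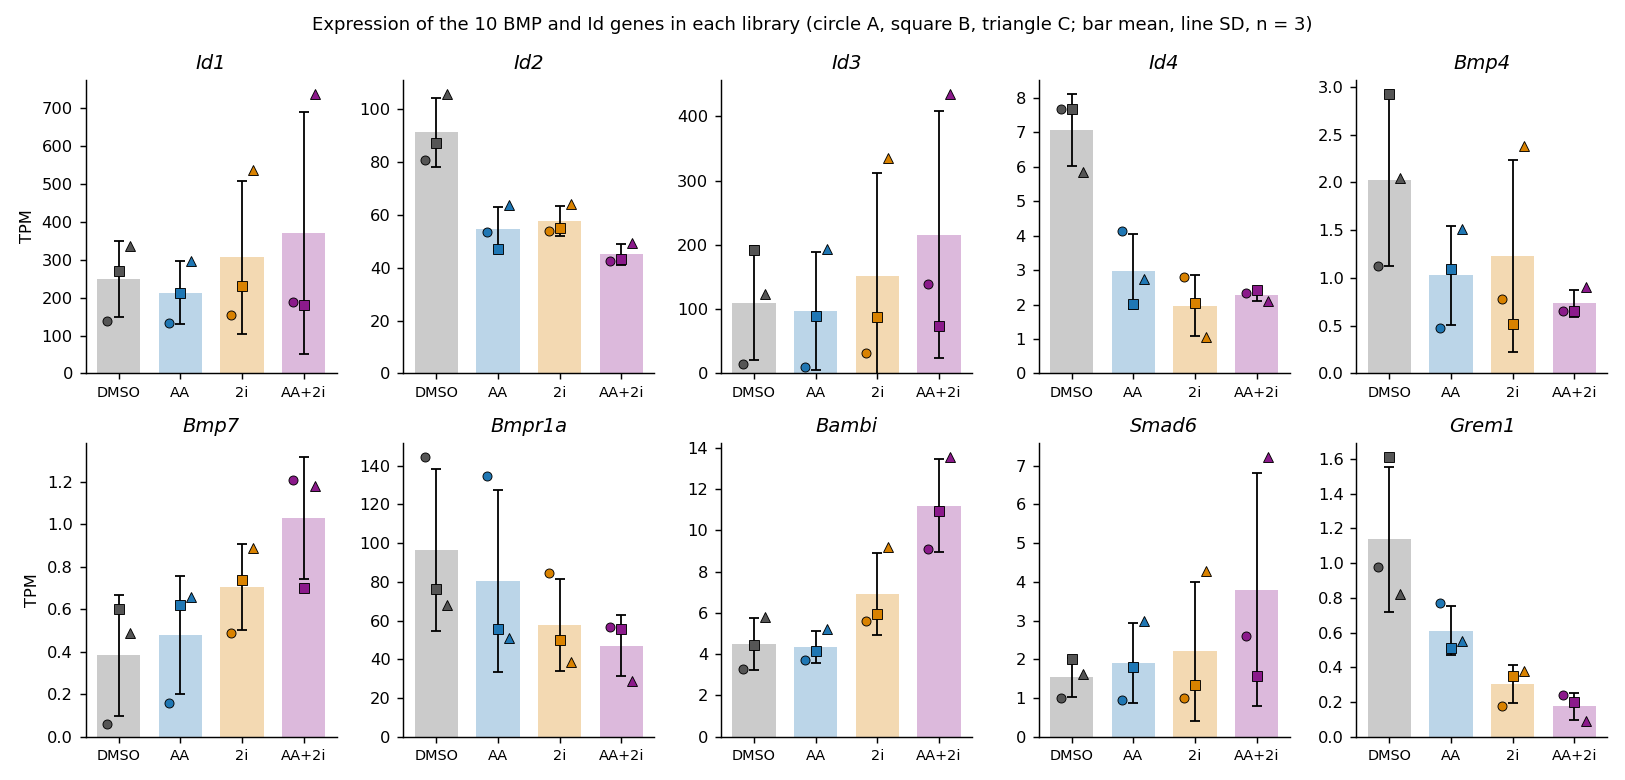
Level of each of the 10 genes in TPM (vertical axis, own scale per gene) in the 4 conditions. Points are libraries (circle A, square B, triangle C), bars are means and lines are SD (n = 3, cut at 0); Id2 and Id4 lie highest in the 3 DMSO libraries, Bambi is highest in AA+2i with at least 9.10 TPM, and the A library of DMSO and AA is far below the others for Id3.

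Among the Id genes, Id4 fell with 2i and with AA+2i. Id4 is the family member with the most restricted expression. Its level was 7.68, 7.68 and 5.86 TPM in DMSO libraries A, B and C, 4.14, 2.01 and 2.75 TPM in AA, 2.81, 2.05 and 1.06 TPM in 2i, and 2.34, 2.43 and 2.09 TPM in AA+2i. Each of the 9 treated libraries lay below every DMSO library, and the treated conditions overlapped with each other. It changed by -1.67 on the log2 scale (SE 0.339, adjusted p = 0.0190, edgeR) with 2i and -1.42 (SE 0.335, adjusted p = 0.0256, edgeR) with AA+2i. With AA alone it was -1.24 (SE 0.332), and the adjusted p of 0.125 from edgeR missed the threshold, whereas with the replicate letter as a block it was 0.0333. In these bulk libraries fewer cells expressing a gene and less RNA per cell cannot be told apart. The call with 2i was lost without DMSO A, 2i B or 2i C (adjusted p up to 0.0788), and that with AA+2i without DMSO A, DMSO B or any 1 AA+2i library (adjusted p up to 0.0886), by edgeR, while the fold stayed between -1.95 and -1.31. Each call was kept in 0 of the 3 fits without a replicate letter (adjusted p up to 0.371 with 2i and 0.302 with AA+2i, edgeR). Both were also lost without DMSO A and AA+2i C together (adjusted p = 0.0718 with 2i and 0.176 with AA+2i, edgeR).

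For Id4 the level with both agents was close to that with either alone, at -0.17 against AA (SE 0.333, adjusted p = 0.799, edgeR), a value that was 0.09 without AA A. The interaction, the departure of the AA+2i effect from the sum of the single effects on the log2 scale, was 1.49 (SE 0.473). Its unadjusted p was 0.00900 in edgeR's test and its adjusted p was 1. Of all tested genes 2, or 0.0149%, had an interaction past the threshold, and none of the 10 members did, with 0 called by DESeq2. An unadjusted p under 0.05 in edgeR's test was reached by 1 member and by 309 of the 13400 tested genes.

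Id2, the Id gene best known from lymphoid and mesenchymal differentiation, was lower in each treatment on the TPM scale. It stood at 80.8, 87.4 and 106 TPM in DMSO, 53.4, 47.2 and 63.8 TPM in AA, 54.0, 55.0 and 64.1 TPM in 2i, and 42.4, 43.4 and 49.6 TPM in AA+2i. No treated library reached the lowest DMSO library, and the AA+2i libraries also lay below all 2i libraries. On the count scale the log2 fold change was -0.72 (SE 0.231, adjusted p = 0.239) with AA, -0.48 (SE 0.231, adjusted p = 0.343) with 2i and -0.81 (SE 0.232, adjusted p = 0.0574) with AA+2i, so Id2 passed in no comparison of edgeR's test without a block. With the replicate letter as a block, Id2 passed with AA (-0.71, adjusted p = 0.0140) and with 2i (-0.47, adjusted p = 0.0376) in edgeR's test. With GC correction in the same blocked fit the value with AA was -0.51 (adjusted p = 0.0440) and that with 2i was -0.18 (adjusted p = 0.366, edgeR). AA+2i differed from 2i by -0.33 (SE 0.231, adjusted p = 0.917, edgeR). DESeq2 gave an adjusted p of 0.0117 for AA+2i against DMSO and limma on log2(TPM + 1) one of 0.00621, whereas correction for GC content moved the value to -0.36 (adjusted p = 0.530, edgeR).

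Id1, the most abundant member and a direct BMP target, differed more between replicates than between conditions. It measured 139, 271 and 336 TPM in DMSO, 132, 212 and 297 TPM in AA, 154, 229.6 and 536 TPM in 2i, and 189, 181 and 738 TPM in AA+2i. The C library was the highest of each condition and the ranges of all 4 conditions overlapped. Values of 0.53 with 2i (SE 0.680, adjusted p = 0.704) and 0.87 with AA+2i (SE 0.683, adjusted p = 0.398) did not pass edgeR's test. AA+2i against AA gave 1.05 (SE 0.685, adjusted p = 0.505, edgeR). Library AA+2i C decided the sign of the last 2 values, which were -0.30 and -0.12 without it, as 2i C did for the first, -0.22 without it.

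Id3, which is often regulated together with Id1, had the widest spread of the members. Its level was 15.3, 192 and 123 TPM in DMSO, 10.1, 89.1 and 193 TPM in AA, 31.9, 88.1 and 334 TPM in 2i, and 139, 73.8 and 435 TPM in AA+2i. The A libraries of DMSO, AA and 2i were the 3 lowest of the 12, and the C libraries of 2i and AA+2i were the highest. No comparison of Id3 passed, with a log2 fold change of 0.76 for 2i (SE 1.17, adjusted p = 0.748), 1.33 for AA+2i (SE 1.18, adjusted p = 0.452) and 1.38 for AA+2i against AA (SE 1.18, adjusted p = 0.598), all by edgeR. With standard errors of this size only very large changes of Id3 could be detected. Without AA+2i C the value for AA+2i against DMSO was 0.14 and that against AA was 0.19, and without 2i C the value for 2i was -0.65.

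The pattern of an Id gene over the 12 libraries was set beside that of every other tested gene by the root mean square difference of log2 CPM (counts scaled to library size), after subtracting the mean of each gene. Nearest to Id4 were Cav2 (0.272), Kcna7 (0.305) and Rgs17 (0.321), against a root mean square of 0.721 for Id4 itself. Nearest to Id2 were Spats2l (0.189), Rhou (0.190) and Steap1 (0.194), against 0.375 for Id2. Id1 was nearest to Hist1h4i (0.197), Pgp (0.286) and Tbcc (0.303), against 0.820, and Id3 to Zfpm1 (0.357), Lzts2 (0.391) and Asb6 (0.431), against 1.65. No Id gene was among the nearest of another. The smallest difference between Id genes was 0.616, for Id2 and Id4, and the best rank of 1 Id gene for another was 1266, for Id1 seen from Id3 (1.02). The measure counts the size of the variation as well as its shape, so genes that vary little lie near each other. It therefore does not show which Id genes rise and fall together. These are descriptions over 12 libraries that share cell line, treatment and GC dependence.

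Both ligands were at low levels, and neither passed in any comparison of edgeR's test without a block. With AA+2i each passed in a fit with a block, given among the alternatives. Bmp4, the ligand used to support ESC self-renewal, measured 1.12, 2.92 and 2.04 TPM in DMSO, 0.48, 1.09 and 1.51 TPM in AA, 0.78, 0.52 and 2.38 TPM in 2i, and 0.65, 0.65 and 0.90 TPM in AA+2i. The AA+2i libraries lay below all DMSO libraries, and the other conditions overlapped with DMSO. For Bmp4 the log2 fold change was -0.92 with AA (SE 0.601, adjusted p = 0.815), -0.51 with 2i (SE 0.604, adjusted p = 0.685) and -1.22 with AA+2i (SE 0.618, adjusted p = 0.237, edgeR). Bmp7, a ligand of the same pathway with roles in kidney and eye, ran the other way and stood at 0.06, 0.60 and 0.49 TPM in DMSO, 0.16, 0.62 and 0.66 TPM in AA, 0.49, 0.74 and 0.89 TPM in 2i, and 1.21, 0.70 and 1.18 TPM in AA+2i. Its AA+2i range lay just above those of DMSO and AA. For Bmp7 it was 1.03 with 2i (SE 0.641, adjusted p = 0.477) and 1.59 with AA+2i (SE 0.629, adjusted p = 0.151, edgeR), from expected counts of 1 to 34 per library, which limit the precision. Of the 14 ligands listed for the pathway, 5 reached the count filter and 0 passed in any comparison of edgeR's test without a block. At most 1 had an unadjusted p under 0.05 in a comparison, and DESeq2 called 0.

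Bmpr1a, the type I receptor for BMP2 and BMP4 that is needed for gastrulation, had its highest values in the A libraries. It measured 144 TPM in DMSO A against 76.2 and 68.3 TPM in B and C, and 135 TPM in AA A against 55.6 and 51.3 TPM. In 2i it stood at 84.6, 50.0 and 38.7 TPM, and in AA+2i at 56.7, 55.6 and 28.7 TPM. The AA+2i libraries lay below all DMSO libraries, and AA and 2i overlapped with DMSO. Its log2 fold change was -0.59 with 2i (SE 0.431, adjusted p = 0.533) and -0.88 with AA+2i (SE 0.433, adjusted p = 0.230), neither past the threshold of edgeR's test without a block. Without DMSO A these values shrank to -0.12 and -0.40. With AA+2i Bmpr1a passed in the fits with a block, given among the alternatives.

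Of the inhibitors, Bambi rose with AA+2i and Grem1 fell with 2i and AA+2i. Bambi is a transmembrane protein that resembles a type I receptor but lacks the kinase, and WNT and BMP signals both induce it. It measured 3.27, 4.42 and 5.79 TPM in DMSO, 3.71, 4.17 and 5.21 TPM in AA, 5.60, 5.93 and 9.19 TPM in 2i, and 9.10, 10.9 and 13.5 TPM in AA+2i. All AA+2i libraries were above all DMSO and AA libraries, and the highest 2i library was just above the lowest AA+2i library. Against DMSO the log2 fold change was 1.54 (SE 0.340, adjusted p = 0.0182, edgeR), and against AA it was 1.56 (SE 0.340, adjusted p = 0.0205, edgeR). It was 0.82 for 2i against DMSO (SE 0.335, adjusted p = 0.247) and 0.72 for AA+2i against 2i (SE 0.333, adjusted p = 0.531), neither past edgeR's threshold. With the replicate letter as a block, the value for 2i passed (0.81, adjusted p = 0.00664, edgeR). The call against DMSO was lost without DMSO A, DMSO B or AA+2i C (adjusted p up to 0.0805), and the call against AA without AA A, AA B, AA+2i B or AA+2i C (adjusted p up to 0.0889), by edgeR. Of the 3 fits without a replicate letter, 2 kept the call against DMSO (adjusted p up to 0.309) and 1 kept that against AA (adjusted p up to 0.385, edgeR). Both were lost without DMSO A and AA+2i C together (adjusted p = 0.192 and 0.0753, edgeR). With GC correction the values were 1.91 (adjusted p = 0.0169) and 1.75 (adjusted p = 0.0306, edgeR).

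Grem1, a secreted protein that binds BMP2, BMP4 and BMP7 and keeps them from their receptors, showed the largest fold change among the members. Its level was 0.98, 1.61 and 0.82 TPM in DMSO, 0.77, 0.51 and 0.55 TPM in AA, 0.18, 0.35 and 0.38 TPM in 2i, and 0.24, 0.20 and 0.09 TPM in AA+2i. Every treated library was below every DMSO library, and all AA+2i libraries were below all AA libraries. These levels rested on expected counts of 13, 58 and 11 in DMSO, 12, 23 and 11 in AA, 3, 7 and 6 in 2i, and 4, 4 and 2 in AA+2i. The log2 fold change was -2.48 with AA+2i (SE 0.437, adjusted p = 0.00582, edgeR) and -1.70 with 2i (SE 0.412, adjusted p = 0.0419, edgeR). With AA it was -0.89 (SE 0.377, adjusted p = 0.456), and for AA+2i against AA -1.59 (SE 0.447, adjusted p = 0.0634), neither past edgeR's threshold. The call with AA+2i held in edgeR's test without any 1 of the 12 libraries (adjusted p at most 0.0333). It was kept in 1 of the 3 fits without a replicate letter (adjusted p up to 0.239, edgeR). Without both DMSO A and AA+2i C it was lost (adjusted p = 0.0551, edgeR). Grem1 met the count filter only through DMSO and AA libraries, so its falls with 2i and AA+2i are descriptive. The call with 2i was kept only without AA A or AA+2i C, and was lost without any 1 of the other 10 libraries and without the count filter.

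Smad6, the inhibitory SMAD that blocks the receptor and is induced by BMP, did not pass in any comparison of edgeR's test without a block. With AA+2i it passed in a fit with a block, given among the alternatives. It stood at 0.99, 2.00 and 1.62 TPM in DMSO, 0.95, 1.79 and 3.00 TPM in AA, 1.00, 1.34 and 4.27 TPM in 2i, and 2.61, 1.57 and 7.22 TPM in AA+2i. The ranges of all conditions overlapped, and the C library was the highest of each treated condition. For Smad6 the log2 fold change was 0.76 with 2i (SE 0.737, adjusted p = 0.628), 1.61 with AA+2i (SE 0.741, adjusted p = 0.206) and 1.23 for AA+2i against AA (SE 0.728, adjusted p = 0.454, edgeR). Without AA+2i C the last 2 values were 0.58 and 0.20, and without 2i C the first was -0.22.

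**Figure D2:**
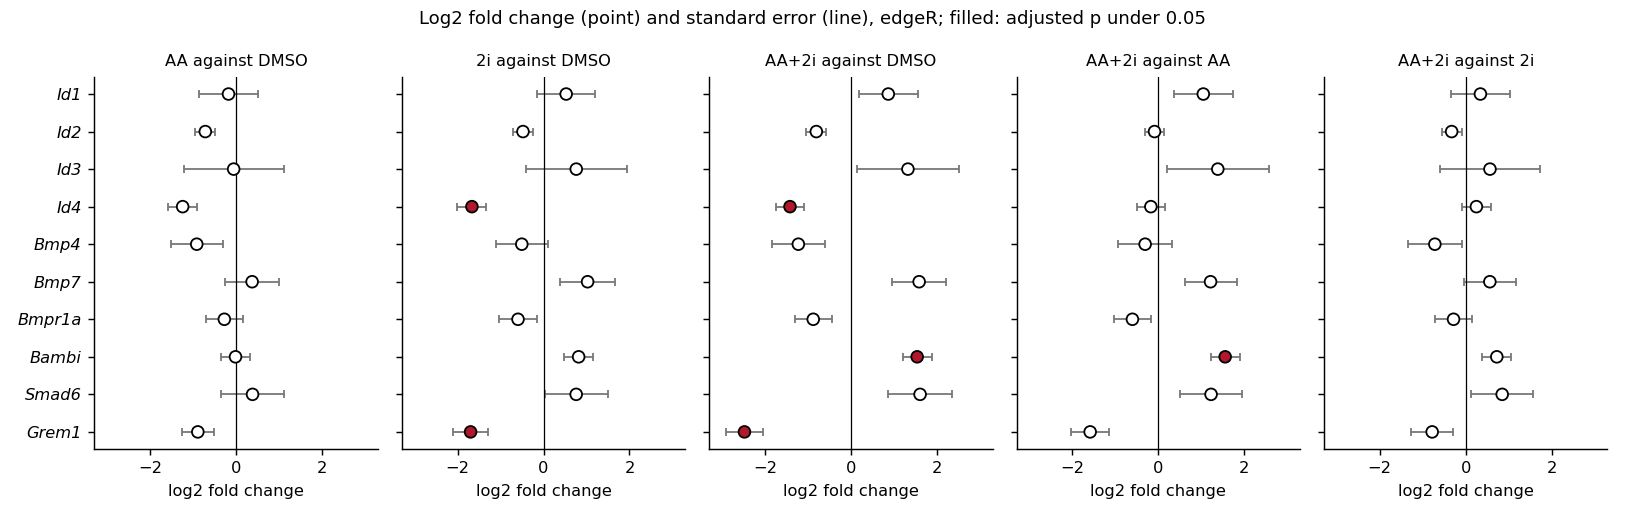
Log2 fold change (point) and SE (line) of the 10 genes in 5 comparisons, each fitted on all 12 libraries; filled points have an adjusted p under 0.05 in edgeR's test. The filled points are Id4 and Grem1 with 2i, Id4, Bambi and Grem1 with AA+2i, and Bambi for AA+2i against AA, and the longest lines, with an SE near 1.17, belong to Id3.

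Counted over the 10 members, AA against DMSO gave 0 rises and 0 falls, where 0.866% of all tested genes rose and 0.470% fell. At an unadjusted p under 0.05 in edgeR's test there were 3 members (Id2, Id4 and Grem1), beside 1263 of the 13400 tested genes. DESeq2 called 1 member and 3.39% of all tested genes. With the replicate letter as a block 2 members passed with AA (Id2 and Id4), where 4.43% of all tested genes passed, and 4 with 2i (Id2, Id4, Bambi and Grem1), where 13.3% passed. Without a block, with 2i, 0 rose (1.59% of all tested genes) and 2 fell (2.83%), Bambi having a positive value with an unadjusted p of 0.0328 in edgeR's test. With AA+2i, 1 rose (3.93%) and 2 fell (4.41%). Grem1, among the falls with 2i and with AA+2i, was tested only through its DMSO and AA counts. AA+2i against AA gave 1 rise (2.81%) and 0 falls (3.29%), with 0 falls by DESeq2. An unadjusted p under 0.05 in edgeR's test was reached there by 2 members and by 2281 of the 13400 tested genes. AA+2i against 2i gave 0 rises (0.761%) and 0 falls (0.149%), with 0 members called by DESeq2. An unadjusted p under 0.05 in edgeR's test was reached there by 0 members and by 1277 of the 13400 tested genes. The median log2 fold change of the members with AA+2i was 0.03, with 5 positive and 5 negative values, beside -0.02 for all tested genes.

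The effect of 2i was measured in libraries that do not overlap, without AA (2i against DMSO) and with AA (AA+2i against AA). All 10 members had the same sign in both, as had 82.4% of the tested genes. Grem1 was at -1.70 and -1.59, which are descriptive because it met the count filter only through DMSO and AA libraries. Bambi was at 0.82 and 1.56, while Id4 differed most, with -1.67 without AA and -0.17 with AA. With GC correction, 8 of 10 members and 77.6% of the genes kept 1 sign. The effect of AA, measured without and with 2i, had the same sign for 6 of 10 members and for 74.1% of the tested genes.

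**Figure D3:**
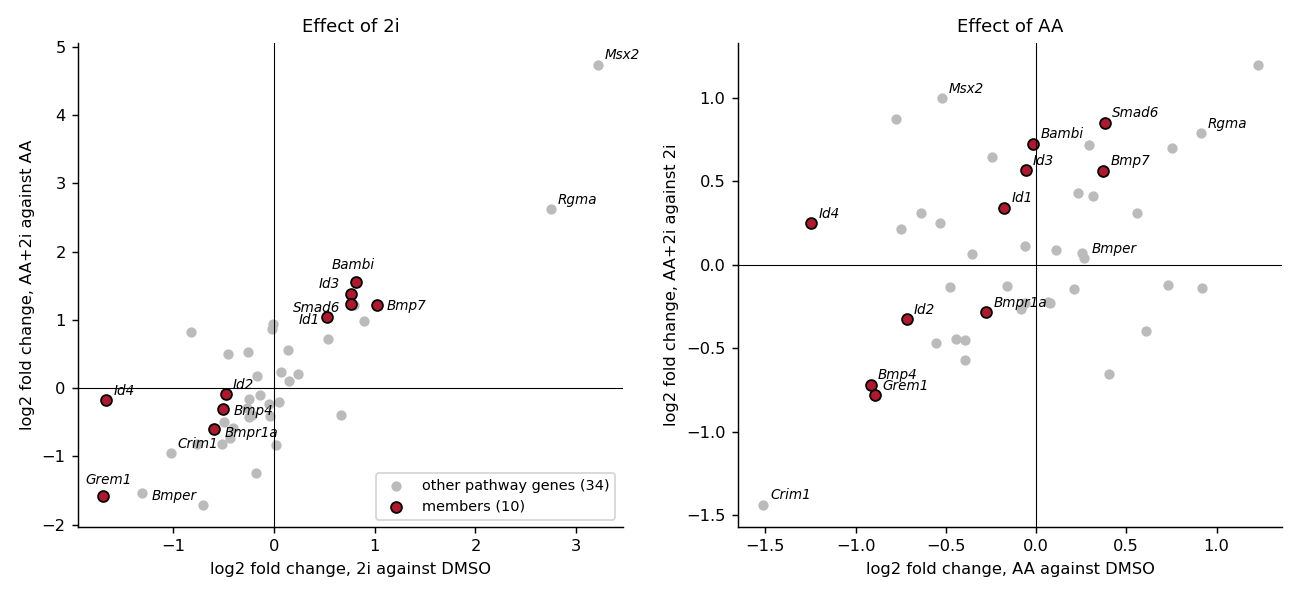
Log2 fold changes of the 44 tested pathway genes for 2i (left, without AA on the horizontal axis and with AA on the vertical axis) and for AA (right, without and with 2i). The 10 members (red) all have the same sign on both axes for 2i, with Id4 close to 0 on the vertical axis, and 6 of them do for AA.

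The dependence on GC content ran through several members. For each library a curve of log2 CPM against transcript GC content was drawn over all tested genes, relative to the mean of the libraries, and read at the GC content of each member. At the 55.6% GC of Id3 the curve stood at -0.92 in DMSO A and 0.55 in AA+2i C. At the 61.8% GC of Smad6 it ran from -1.97 to 1.37 between the same libraries. At the 41.3% GC of Bmpr1a it ran the other way, from 0.80 in DMSO A to -0.54 in AA+2i C, and Id4, at 48.8%, saw only 0.20 and -0.16.

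Subtracting the curve narrowed the spread between replicates for 7 of the 10 genes and widened it for Id2, Bambi and Grem1. The pooled SD within conditions (log2 CPM) went from 0.577 to 0.189 for Bmpr1a, from 0.834 to 0.427 for Bmp7, from 0.981 to 0.634 for Smad6 and from 1.86 to 1.41 for Id3. It went from 0.257 to 0.555 for Id2 and from 0.415 to 0.691 for Bambi. The corrected log2 fold change with AA+2i was 0.21 for Smad6, -0.32 for Bmpr1a and 0.39 for Id1, and with 2i that of Smad6 changed sign to -0.22. Id4, Bambi and Grem1 kept the calls named above, with -1.30 (adjusted p = 0.00636) for Id4 and -2.23 (adjusted p = 0.00652) for Grem1 with AA+2i in edgeR's test, and Id4 also passed with AA (-1.23, adjusted p = 0.0236). Whether the curve accounts for the replicate differences of Id1, Id3 and Smad6 was not tested beyond this correction.

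**Figure D4:**
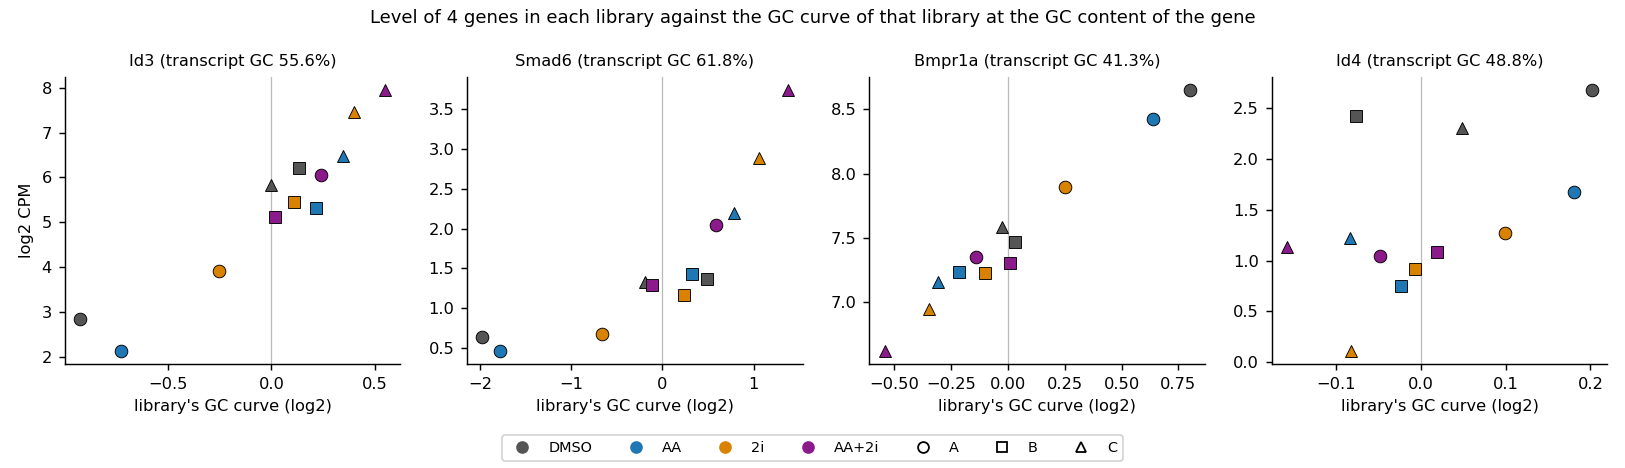
Level of Id3, Smad6, Bmpr1a and Id4 (vertical axis, log2 CPM) in each of the 12 libraries against the value of that library's GC curve at the GC content of the gene (horizontal axis, log2). Colours are conditions and shapes are replicates; Id3 and Smad6 are lowest where the curve is lowest (DMSO A and AA A), Bmpr1a is highest where its curve is highest, and the DMSO libraries of Id4 lie above the rest at low and high curve values alike.

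The wider pathway was read from a list of 64 genes, the 10 members and 54 others, of which 34 others and 44 in all reached the count filter. Of the 44, 0 rose and 1 fell with AA (0.866% and 0.470% of all tested genes), 1 rose and 2 fell with 2i (1.59% and 2.83%), and 3 rose and 3 fell with AA+2i (3.93% and 4.41%). AA+2i against AA gave 3 rises and 1 fall (2.81% and 3.29%), and AA+2i against 2i 0 rises and 1 fall (0.761% and 0.149%). The median log2 fold change of the list with AA+2i was -0.16, beside -0.02 for all tested genes.

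The core of the pathway was expressed and did not pass in edgeR's test without a block or GC correction. In DMSO the effector Smad5 stood at 62.7 ± 15.8 TPM, Smad1 at 14.1 ± 3.997 TPM and the partner Smad4 at 71.7 ± 9.003 TPM (SD, n = 3). With AA+2i the log2 fold change was -0.66 (SE 0.329, adjusted p = 0.231) for Smad5, -0.48 (SE 0.258, adjusted p = 0.256) for Smad1 and -0.26 (SE 0.197, adjusted p = 0.382) for Smad4, by edgeR. Of the 4 SMAD effectors 0 passed in any comparison of edgeR's test, and 0 by DESeq2. For AA+2i against AA, 1 of them had an unadjusted p under 0.05 in edgeR's test, beside 2281 of the 13400 tested genes. With GC correction, Smad5 passed for AA+2i against AA (-0.50, SE 0.146, adjusted p = 0.0394, edgeR), and Smad1, Smad4 and Smad9 passed in no comparison. Of the 3 E proteins bound by Id proteins 0 passed by either tool and 0 had an unadjusted p under 0.05 in edgeR's test, with Tcf12 at 125 ± 45.4 TPM in DMSO. Tcf3 stood at 52.5 ± 47.7 TPM in DMSO and 102.6 ± 56.2 TPM in AA+2i, a log2 fold change of 1.30 (SE 0.9005, adjusted p = 0.3465, edgeR). The authors, by another test, report a gene of this symbol as increased only when both agents were given.

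Of the other 34 tested genes, 4 passed in at least 1 of the 5 comparisons, as did 3 of the 10 members and 11.4% of all tested genes, so 4 of 34 is near the general share. The 3 members include Grem1, which was tested only through its DMSO and AA counts. Rgma, a membrane-anchored BMP co-receptor, rose with 2i and with AA+2i. It measured 2.21, 8.16 and 3.34 TPM in DMSO, 3.91, 10.6 and 9.64 TPM in AA, 16.6, 25.1 and 35.1 TPM in 2i, and 50.3, 31.6 and 49.4 TPM in AA+2i, with no overlap between libraries that had 2i and those that did not. Rgma had a log2 fold change of 2.75 with 2i (SE 0.532, adjusted p = 0.0152), 3.53 with AA+2i (SE 0.550, adjusted p = 0.00322) and 2.62 for AA+2i against AA (SE 0.527, adjusted p = 0.0139, edgeR). The first of these was lost without DMSO C or 2i C (adjusted p up to 0.0592) and the last without AA+2i C (adjusted p = 0.0510, edgeR).

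Msx2, a homeobox gene and classical BMP target, rose in AA+2i. It stood at 0.23, 0.21 and 1.01 TPM in DMSO, 0.24, 0.17 and 0.56 TPM in AA, 2.47, 2.26 and 6.48 TPM in 2i, and 4.11, 4.39 and 12.9 TPM in AA+2i. All libraries with 2i lay above all libraries without it. Msx2 had a log2 fold change of 4.21 against DMSO (SE 0.875, adjusted p = 0.0136) and 4.74 against AA (SE 0.891, adjusted p = 0.01002, edgeR), and 3.22 for 2i against DMSO (SE 0.855, adjusted p = 0.0613). The call against DMSO was lost without DMSO A or DMSO B (adjusted p up to 0.0602), and that against AA without AA B (adjusted p = 0.0589, edgeR).

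Crim1 and Bmper, both cysteine-rich BMP-binding proteins, fell. Crim1 measured 2.08, 3.17 and 1.62 TPM in DMSO, 1.00, 0.59 and 0.76 TPM in AA, 1.09, 0.91 and 0.91 TPM in 2i, and 0.47, 0.33 and 0.27 TPM in AA+2i. The AA+2i libraries lay below all others, and DMSO above all others. Crim1 had a log2 fold change of -1.51 with AA (SE 0.279, adjusted p = 0.0248), -2.47 with AA+2i (SE 0.292, adjusted p = 0.000728) and -1.44 for AA+2i against 2i (SE 0.288, adjusted p = 0.0455, edgeR). The middle call held without any 1 library (adjusted p at most 0.00649), while the first was lost without DMSO A, DMSO B, AA B, AA C or 2i B and the last without any 1 of 9 of the 12 libraries, with TMM factors, without the count filter and with limma on TPM. Bmper stood at 19.1 to 32.5 TPM in DMSO, 22.1 to 40.8 TPM in AA, 5.18 to 11.8 TPM in 2i and 4.99 to 12.7 TPM in AA+2i. Every library with 2i lay below every library without it. For AA+2i against AA the log2 fold change was -1.54 (SE 0.388, adjusted p = 0.0408, edgeR), a call lost without any 1 of 8 of the 12 libraries. Against DMSO it was -1.31 with 2i (SE 0.387, adjusted p = 0.0918) and -1.27 with AA+2i (SE 0.386, adjusted p = 0.0704), neither past edgeR's threshold. With GC correction both passed (adjusted p = 0.0300 and 0.0245, edgeR).

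**Figure D5:**
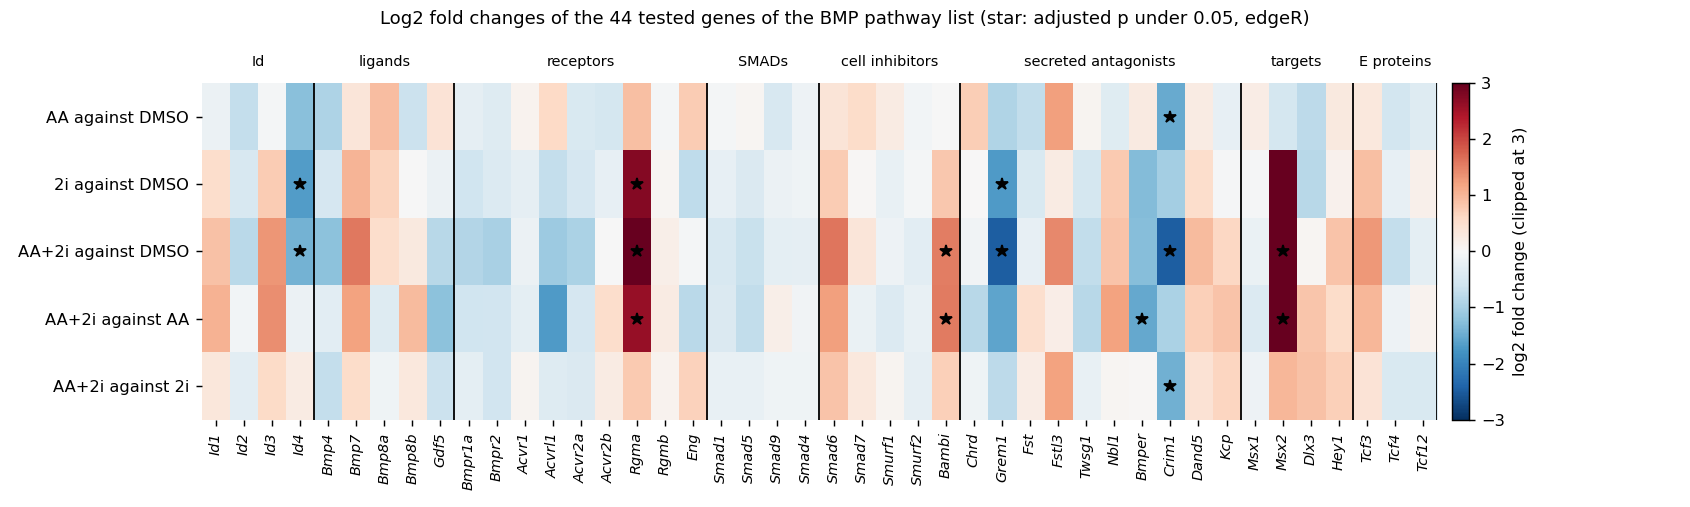
Log2 fold changes (colour, clipped at 3) of the 44 tested pathway genes (columns, grouped by role) in 5 comparisons (rows); a star marks an adjusted p under 0.05 in edgeR's test. Stars fall on the antagonists Grem1, Crim1 and Bmper, on Bambi, Rgma, Msx2 and Id4, and on none of the ligands, SMADs or E proteins.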

How the data were processed

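The authors sequenced 12 TruSeq RNA libraries (4 conditions, described as biological triplicates) and quantified it with Bowtie and RSEM 1.2.4 against RefSeq transcripts of mm9. The deposited tables hold expected counts, TPM and FPKM per gene, and 1 malformed TPM cell of a gene not described here was recomputed from FPKM. Counting took no account of strand, so antisense reads cannot be told apart. The test was edgeR's (version 4.0.16, R 4.3.3) on the rounded values (quasi-likelihood, RLE factors, 1 mean per condition, 8 residual degrees of freedom, Benjamini-Hochberg over 13400 genes). GC content came from NCBIM37 transcripts for 99.21% of these, with curves by loess (span 0.4), and log2 CPM used a prior count of 2. limma 3.58.1 (pseudocounts 1 and 0.1), DESeq2 1.42.0, TMM, other filters, the replicate letter, GC correction and left-out libraries were alternatives. The letters are not said to mark a batch. Same-letter libraries deviated together among DMSO, AA and 2i (r = 0.177 to 0.894, 9 pairs). For AA and 2i against DMSO, calls with the letter as a block are therefore given beside those without it. Same-letter pairs with AA+2i B did not deviate together (r = -0.588 to 0.067). That library deviated with DMSO A (r = 0.693), AA A (0.769) and 2i A (0.76). For comparisons with AA+2i the block is therefore given only among the alternatives. Calls and figures rest on the fit without a block, and the blocked fit held all 12 libraries, AA+2i B included. This reading was settled with the blocked calls known. The fits were tested on simulated data. No library was a copy of another, with at least 14945 genes differing between any pair. The members, the gene lists and the tests were chosen with earlier results of these data known. The text names every member and those other list genes that passed in a pairwise comparison of edgeR's test without a block or correction.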

Additional observations from a re-analysis of the deposited data

How the results depend on the processing

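In these alternatives no called value of a member changed sign. Over all members and comparisons, values changed sign in 14 of 522 cases under another test, scaling, filter or correction, 15 of 180 without a letter, 47 of 720 without 1 library and 11 of 60 without both DMSO A and AA+2i C, all of them uncalled. The single-library and both-library removals were chosen after seeing the data. In the same fits the share of all tested genes called, in brackets, moved as well. With AA, 0 members passed (1.34%), against 1 with DESeq2 (3.39%), 1 with GC correction (4.19%) and 2 with the replicate block, alone (4.43%) or with GC correction (10.8%). With 2i, 2 passed (4.42%), against 1 without a count filter (3.10%), 1 with 10 counts in every library (3.2%), 4 with the replicate block (13.3%) and 0 without both libraries (2.77%). Only 7 members were tested with 10 counts in every library, and Grem1 was not among them. With AA+2i, 3 passed (8.34%), against 7 with the replicate block (31.6%), 6 with it and GC correction (36.2%) and 0 without both libraries (2.90%). The 7 were Id2, Id4, Bmp7 (1.67, adjusted p = 0.0393), Bmpr1a (-0.79, adjusted p = 0.0216), Bambi, Smad6 (1.29, adjusted p = 0.0484) and Grem1, by edgeR. The 6 were Id4, Bmp4 (-1.45, adjusted p = 0.0194), Bmp7 (1.21, adjusted p = 0.0295), Bmpr1a (-0.32, adjusted p = 0.01185), Bambi and Grem1, by edgeR. For AA+2i against AA, 1 passed (6.10%), against 2 with limma on log2(TPM + 0.1) (6.19%), 2 with the replicate block, alone (14.9%) or with GC correction (27.6%), and 0 without both libraries (3.50%). With the block alone the 2 were Bambi and Grem1, and with GC correction added they were Bambi and Bmpr1a (-0.25, adjusted p = 0.0425, edgeR). For AA+2i against 2i, 0 passed (0.910%), against 1 with the replicate block, alone (4.52%) or with GC correction (11.5%). Leaving out a letter or library gave 0 to 2 members with 2i, 0 to 3 with AA+2i and 0 to 1 for AA+2i against AA. Fewer samples enter those fits. It moved Id1 between -0.22 and 0.89 with 2i, between -0.30 and 1.23 with AA+2i and between -0.12 and 1.41 for AA+2i against AA, Id4 for AA+2i against AA between -0.39 and 0.11, Id3 with 2i between -0.65 and 1.58, Bmp4 with 2i between -1.49 and 0.13, and Smad6 with 2i between -0.22 and 1.17. Without both libraries Id1 was at -0.57 with AA+2i and -0.12 against AA, and Id3 at -0.38 with AA+2i. GC correction put Smad6 with 2i at -0.22, and at -0.19 with the replicate block. In the pathway list, 6 of the tested genes passed with AA+2i, against 9 with DESeq2 (14.0% of all genes), 11 with GC correction (19.7%) and 20 with the replicate block (31.6%). With GC correction, 2 genes of the list passed with AA (4.19%), 8 with 2i (12%) and 11 for AA+2i against AA (15%). Over all 18 same-letter pairs the mean r was 0.401, with 3 at or below 0.1, all of them with AA+2i B, and 11 of 12 libraries correlated best with their own letter, a hint from the data and not from the design. The causes of these shifts were not tested.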
